A study of Mus musculus with 69 samples.

Results

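The samples described here were p53KO–emiRFP mouse embryonic stem (mES) cells at 0 h and p53KO–emiRFP cells sorted from mosaic WT + p53KO gastruloids at 48 h, 3 libraries each, that is 6 of the 69 libraries of bulk poly-A RNA sequencing in the study. The libraries were chosen by their labels alone, and every gene of the table entered the comparison. The p53KO–emiRFP clone is a daughter, grown from 1 cell, of the WT–emiRFP clone of E14Tg2A mES cells. It carries a homozygous frameshift in Trp53 and, like its parent, the nuclear reporter H2B–emiRFP670 under a CAG promoter. At 0 h the cells had been kept as a flat culture in serum with LIF. Mosaic gastruloids, which are aggregates of ES cells that develop without an embryo, were seeded from 150 WT–mCherry cells with 25 p53KO–emiRFP cells and grown in N2B27 without serum or LIF. The 48 h samples precede the pulse of the Wnt agonist CHIR99021, which the protocol gives afterwards. Time, medium, aggregation, the WT neighbours and the dissociation of the aggregates changed together between 0 h and 48 h and cannot be told apart. The parental WT–emiRFP clone, at 0 h and at 48 h in WT + WT gastruloids seeded from 150 + 150 cells, served as the comparison, and its neighbours and seeding differed together with the genotype. The 3 clones among the 69 libraries each derive from 1 isolated cell, many gastruloids were pooled for a sample, and the purity of the sorted cells was not measured afterwards. The replicates were 3 experiments done at separate times.

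Mouse ES cells in serum with LIF hold the naive state of the early epiblast, in which LIF acts through STAT3, and BMP through the Id genes, to keep a network of transcription factors that includes Nanog, Esrrb, Klf4 and Tfcp2l1. When LIF and serum are withdrawn, the cells leave this state under FGF and ERK signalling and pass into formative pluripotency, marked by Fgf5, Otx2, Pou3f1 and the de novo DNA methyltransferases, while Pou5f1 is kept. Only later do primitive streak genes such as T appear. The transcription factor p53, which Trp53 encodes, activates genes of cell cycle arrest and cell death, among them Cdkn1a, Ccng1, Bbc3 and Pmaip1, and raises the level of its own inhibitor Mdm2.

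The 6 libraries held between 44548892 and 56453570 counts, with size factors from 0.817 to 1.01. Mitochondrially encoded transcripts took between 0.88 and 1.65% of a library, and the gene with the largest share, Eef1a1, took at most 1.43%. No pair of libraries within a group agreed within sampling noise. Levels are given as counts divided by the size factor of the library (normalised counts), which compare a gene between libraries and not 1 gene with another. Trp53 transcript itself checks the labels. It stood at 2331, 2532 and 2589 normalised counts at 0 h and 1773, 1904 and 1761 at 48 h, against 27511, 25304 and 23677 in WT–emiRFP at 0 h and 15255, 16714 and 15839 at 48 h. The log2 fold change in p53KO–emiRFP cells was −0.45 ± 0.07 (SE, adjusted p = 4.3e-07). All 6 p53KO–emiRFP libraries lay below all 6 WT–emiRFP libraries.

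Of 21121 genes with enough counts to test, 5969 rose between 0 h and 48 h, which is 28.3% of the genes tested, and 6589 fell, which is 31.2%, by the quasi-likelihood test of edgeR with Benjamini-Hochberg adjusted p under 0.05. Since so many genes moved, a stricter test was read beside it, edgeR's glmTreat, which asks whether a change exceeds 2-fold. By this test 1120 genes (5.3%) rose past 2-fold and 1992 (9.43%) fell past 2-fold. The median log2 fold change over all tested genes was −0.01. Counts of list members are to be read against these shares, and the lists were described without a test of the list.

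The largest rise among expressed, named genes was that of Slc35d3, a nucleotide sugar transporter family member, which went from 8.30, 3.96 and 6.07 normalised counts at 0 h to 763, 657 and 604 at 48 h, a log2 fold change of 6.77 ± 0.25 (SE). Enpp2, which encodes the secreted enzyme autotaxin, went from 215, 242 and 266 to 8865, 8563 and 8903. The groups did not overlap for any of the 10 genes with the largest rises, which the rule for naming required. They further comprised the transcription factor Sox3, the growth factor Fgf5, the chemokine Cxcl12, the neuronal adhesion gene Astn1, and Aadat, Shisa6 and St8sia3, with log2 fold changes between 4.71 and 5.11. The largest fall was that of Inhbb, the βB subunit of activins and inhibins, from 2171, 1971 and 1979.9 normalised counts to 7.86, 8.57 and 11.1, a log2 fold change of −7.77 ± 0.24. Mras, a Ras-family GTPase, fell from 3385, 3345 and 3117 to 31.4, 37.9 and 28.2, and Jam2, a junctional adhesion molecule, from 11214, 13177 and 13249 to 144, 147 and 113. The other genes with the largest falls were Spink1, Msln, Serpinb6c, Acta2, Pramel6, Msc and Bcl3, with log2 fold changes between −7.69 and −6.28. Spink1 and Msln had 4 raw counts each over the 3 libraries at 48 h, so the size of their falls is known only roughly. Acta2, smooth muscle actin, was uneven at 0 h, with 409, 553 and 1064 normalised counts.

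**Figure D1:**
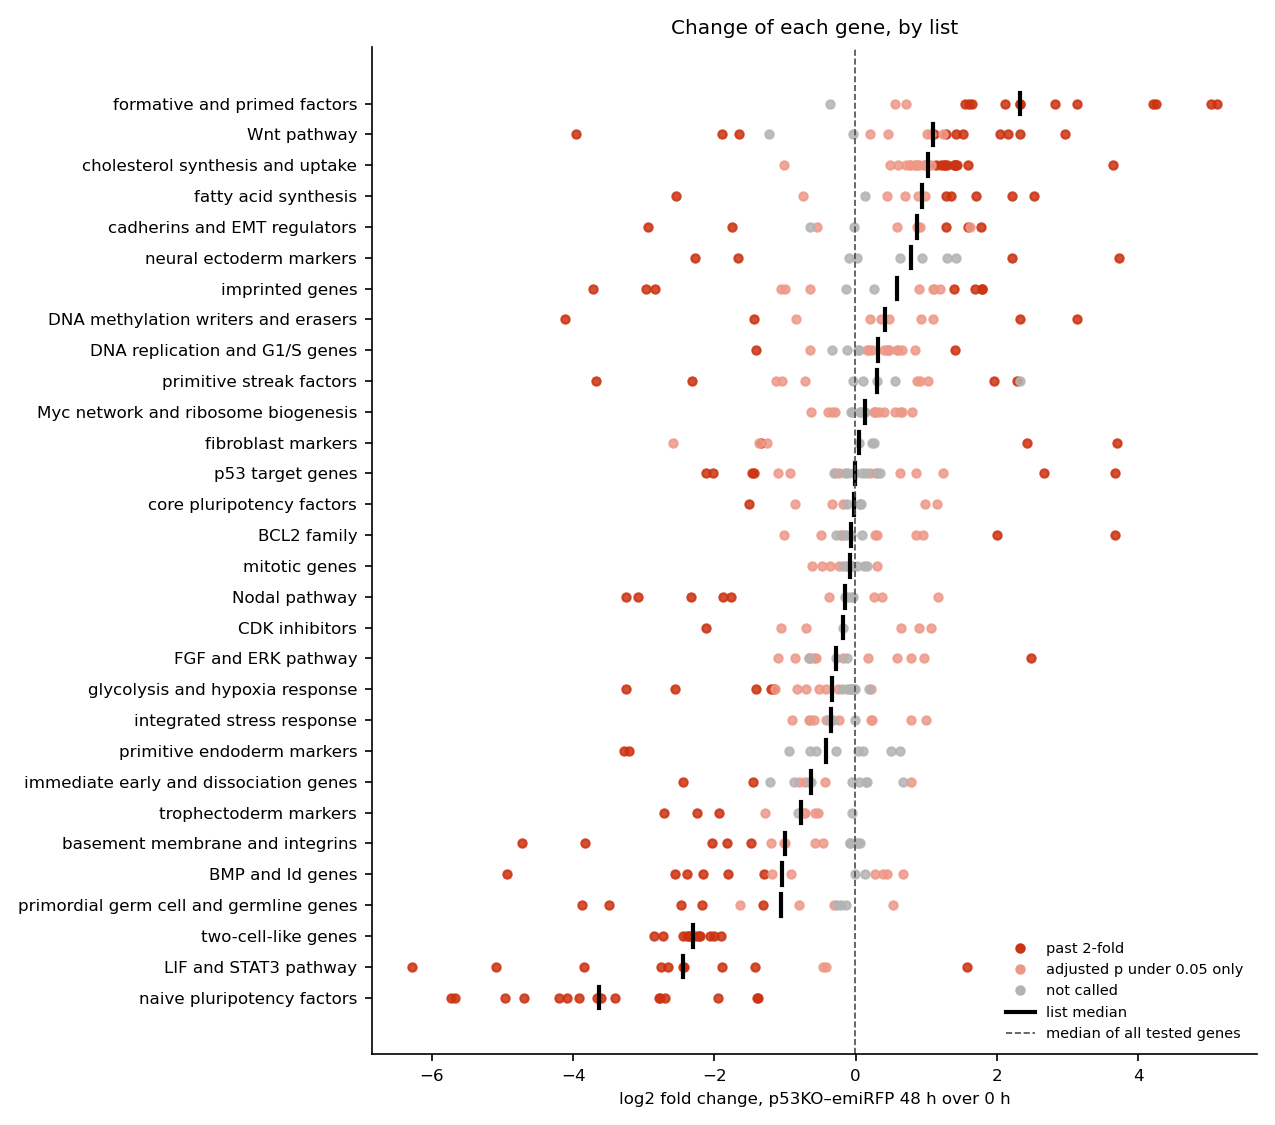
Log2 fold change of p53KO–emiRFP cells, 48 h over 0 h, for each tested gene of 30 lists (x axis), with the lists on the y axis ordered by their median (black bar). Red points passed the 2-fold test, pale red points passed only the test of any change, grey points passed neither, and the dashed line is the median of all tested genes, −0.01; the naive factors lie farthest to the left (median −3.63) and the formative and primed factors farthest to the right (median 2.33).

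Naive pluripotency genes fell in every case. All 16 naive factors listed were tested, and all 16 fell past 2-fold, against 9.43% of all genes, with a median log2 fold change of −3.63. Klf4, a Krüppel-like factor of the naive network, fell the most of them, with 8634, 8449 and 8969 normalised counts at 0 h and 156, 165 and 169 at 48 h, a log2 fold change of −5.73 ± 0.22 (adjusted p = 2.0e-30). The 3 libraries at 48 h lay close together and far from the 0 h libraries. Prdm14, a repressor of the formative programme in naive cells, had 1223, 1554 and 1457 normalised counts at 0 h and 26.9, 30.6 and 25.2 at 48 h (log2 fold change −5.68 ± 0.16). Tfcp2l1, a target of LIF signalling, fell by 4.97 on the log2 scale, and the orphan nuclear receptor Esrrb fell by 4.20 on the log2 scale, from 43992 ± 2217 to 2393 ± 182 normalised counts (mean ± SD, n = 3, as in all values written so below). Nanog, the homeodomain factor that gives the naive state its stability, went from 30351, 29202 and 28099 to 2346, 2368 and 2205 normalised counts, a log2 fold change of −3.66 ± 0.10 (adjusted p = 1.7e-37). Zfp42 (Rex1), the usual reporter gene of naive cells, fell from 44235, 47132 and 44373 to 3871, 3925 and 3397. For these genes too the lowest library at 0 h lay far above the highest at 48 h. The smallest falls of the list were those of Gbx2 (log2 fold change −1.38 ± 0.11), a homeobox target of LIF, and Dppa3 (log2 fold change −1.40 ± 0.16), known from the early germ line. In bulk samples such as these, fewer cells with a transcript and less transcript per cell cannot be told apart.

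Core pluripotency factors, shared by naive and later pluripotent states, moved less. Of 10 tested, 2 rose, 4 fell and 4 did not pass the test, with a median log2 fold change of −0.03. Pou5f1 (Oct4), required in every pluripotent state, had 29126, 30460.1 and 28309 normalised counts at 0 h and 31697, 31619 and 28255 at 48 h, and the groups overlapped (log2 fold change 0.06 ± 0.12, adjusted p = 0.71). Its partner Sox2 went the other way from its relative Sox3. Sox2 fell past 2-fold, from 22281, 22634 and 25396 to 8014, 8425 and 8155 normalised counts (log2 fold change −1.52 ± 0.09). Utf1, a chromatin-associated factor of pluripotent cells, rose by 1.15 on the log2 scale, and Lin28a, which binds let-7 precursors, rose by 0.99 on the log2 scale. Dppa2 fell by 0.87 on the log2 scale, while its partner Dppa4 had a log2 fold change of −0.12 ± 0.08, which did not pass the test (adjusted p = 0.19).

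Formative and primed genes rose. Of 16 listed, Foxd3 had too few counts to test, 14 of 15 tested rose and 12 did so past 2-fold, against 5.3% of all genes. Only Tcf15 of those tested did not pass, with a log2 fold change of −0.37 ± 0.19 and overlapping groups, and it passed as a fall without the low-count filter (−0.37), with only the compared groups (−0.36) and without replicate 2 (−0.64). Sox3, a SoxB1 factor of the later epiblast and neural plate, had 81.9, 46.5 and 81.3 normalised counts at 0 h and 2319.5, 2650.3 and 2238 at 48 h (log2 fold change 5.11 ± 0.21, adjusted p = 1.0e-28). Fgf5, the classical marker of the post-implantation epiblast, had 88.2, 111 and 133 normalised counts at 0 h and 3580.4, 3515 and 3750.5 at 48 h (log2 fold change 5.03 ± 0.24). Pou3f1 (Oct6), a POU factor of the same stage, went from 565, 491 and 764 to 10533, 12608 and 11532, and no library at 0 h reached a level close to any at 48 h. Otx2, which redirects Oct4 to formative enhancers, rose by 2.82 ± 0.18, the zinc finger factor Sall2 by 4.21 and Zic2 by 2.12 on the log2 scale. Fgf15 and Lin28b rose by 1.64 and 1.60 on the log2 scale. The smallest rises were those of Etv4 (0.55), a target of FGF signalling, and Grhl2 (0.71), which opens epithelial enhancers.

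**Figure D2:**
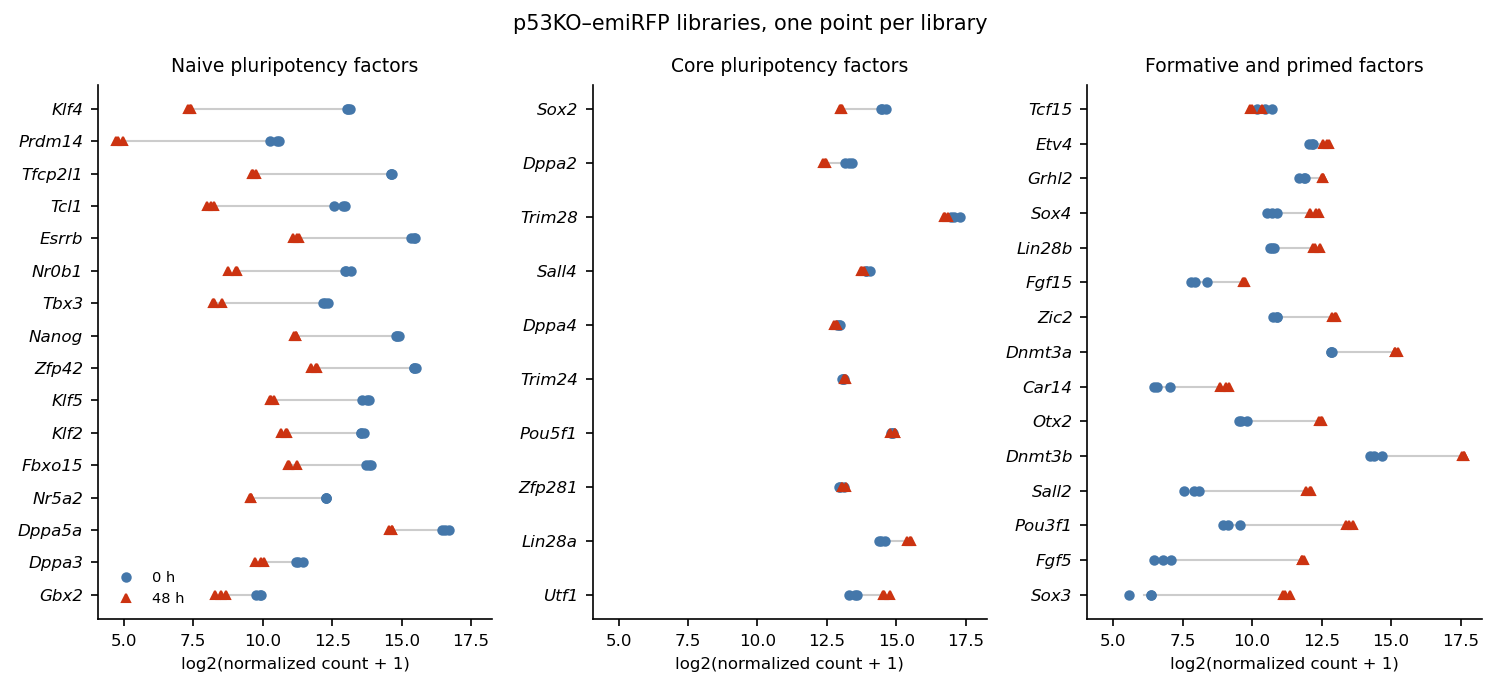
Level of naive, core and formative or primed genes in each p53KO–emiRFP library, as log2(normalised count + 1) on the x axis, with 3 circles for 0 h, 3 triangles for 48 h and a grey line between the group means. The triangles lie left of the circles for all 16 naive factors, close to them for Pou5f1, and right of them for all formative and primed genes tested except Tcf15.

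To place these genes beside their regulatory sequence, promoters of 250 bases before to 50 bases after the start site, from RefSeq on GRCm38.p6, were searched on both strands for short letters bound by factors of this transition. Promoters were at hand for 10 of 16 naive and 9 of 16 formative and primed genes. The octamer ATGCAAAT, bound by Oct4, was found in 1 naive gene, Zfp42, in no formative gene and in 1.97% of all 27025 genes with a promoter. The Krüppel-like letters GGGNGTG were in 6 naive and 5 formative genes, and in 31.9% of all genes. The E-box CACGTG was in 2 naive genes, Klf4 and Gbx2, in 3 formative genes, Dnmt3a, Lin28b and Foxd3, and in 8.09% of all. The ESRRB letters AAGGTCA were in none of either list and in 5.38% of all genes. The STAT letters TTCCNGGAA were in 1 of 12 genes of the LIF and STAT3 list, Icam1, and in 1.35% of all. Sterol element letters TCACNCCAC were in 1 of 16 cholesterol genes, Hmgcs1, and in 1.44% of all. The promoters below are shown because their genes carry the main changes described here, namely the fall of a naive gene, the rise of a formative gene and the rise of a sterol synthesis gene. Zfp42 (chr8:43306960-43307259, minus strand) has its octamer in capitals, written there as the reverse complement ATTTGCAT, Fgf5 (chr5:98253934-98254233, plus strand) its 4 Krüppel-like matches, of which those that touch run together, and Hmgcs1 (chr13:119690101-119690400, plus strand) its sterol element match. None of these motifs contains another. A match is a description of the letters and not of a bound site.
Zfp42: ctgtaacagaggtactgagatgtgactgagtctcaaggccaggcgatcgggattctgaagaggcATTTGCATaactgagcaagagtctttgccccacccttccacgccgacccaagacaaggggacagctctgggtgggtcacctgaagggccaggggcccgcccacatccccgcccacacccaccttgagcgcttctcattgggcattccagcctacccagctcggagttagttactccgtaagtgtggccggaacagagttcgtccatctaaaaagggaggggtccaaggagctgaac
Fgf5: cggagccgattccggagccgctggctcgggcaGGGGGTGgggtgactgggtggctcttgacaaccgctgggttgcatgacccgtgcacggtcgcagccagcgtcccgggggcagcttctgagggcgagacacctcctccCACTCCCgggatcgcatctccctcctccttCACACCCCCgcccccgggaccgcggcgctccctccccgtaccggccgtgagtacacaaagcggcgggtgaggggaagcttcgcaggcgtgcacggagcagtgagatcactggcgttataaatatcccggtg
Hmgcs1: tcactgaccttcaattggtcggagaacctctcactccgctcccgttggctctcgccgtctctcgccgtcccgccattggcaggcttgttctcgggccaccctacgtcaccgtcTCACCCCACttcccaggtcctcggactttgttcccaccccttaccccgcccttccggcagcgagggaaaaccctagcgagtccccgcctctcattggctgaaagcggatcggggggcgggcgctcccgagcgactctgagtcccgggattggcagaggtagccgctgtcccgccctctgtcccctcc

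Genes of later fates moved in both directions, as did all tested genes, of which 28.3% rose and 31.2% fell. Of 15 primitive streak factors, 5 rose, 5 fell and 5 did not pass the test, with a median log2 fold change of 0.30. The falls numbered 3 without replicate 1 and 2 without replicate 3. T (Brachyury), the defining gene of the streak, had 51.9, 62.4 and 76.4 normalised counts at 0 h and 71.9, 63.7 and 95.6 at 48 h, with overlapping groups (log2 fold change 0.30 ± 0.36, adjusted p = 0.49). Eomes, a T-box factor of the streak and of endoderm, rose from 254 ± 52.5 to 513 ± 76.9, and Mixl1 from 43.2 ± 1.20 to 79.7 ± 14.0 normalised counts. Foxa2, a factor of endoderm and node, rose from 14.5, 17.8 and 24.3 to 52.8, 80.8 and 85.6 (log2 fold change 1.97), and Wnt3a and the Wnt target Sp5 fell, with log2 fold changes of −3.68 and −2.31. Of 10 neural ectoderm markers, Zic1 and Nes rose, with Nes, an intermediate filament of neural progenitors, going from 849.6, 881 and 1209.5 to 4324, 4292 and 5053. Pax6 and Tubb3 fell, with log2 fold changes of −2.28 and −1.67, and Sox1, the defining gene of neural ectoderm, had 114, 94.1 and 160.1 normalised counts at 0 h and 106, 159 and 109 at 48 h. The other 5 markers of that list did not pass the test.

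Markers of other lineages were given as a check of what else the samples could hold. Of 10 primitive endoderm markers, 2 fell, Sox7 and Hnf4a, none rose, and their summed level was 930.0 to 1055 normalised counts at 0 h and 929 to 1022 at 48 h, so the ranges overlapped. The count of falls was 4 without the low-count filter, with only the compared groups and with DESeq2, since Gata6 (−0.95 without the filter) and Pdgfra (−0.65) then passed, and Dab2 passed as a rise without the filter (0.51), with only the compared groups (0.51) and without replicate 3 (0.58). Of 10 trophectoderm markers, 8 fell, against 31.2% of all genes, and none rose. Their summed level, most of it the keratins Krt8 and Krt18, was 8169 to 11632 normalised counts at 0 h and 4993 to 5238 at 48 h. Krt7 fell from 412, 574 and 730.3 to 157, 160.4 and 132, and Hand1 from 305, 363 and 359 to 75.2, 79.6 and 62.4. The falls of Krt18 (−0.68), Ascl2 (−0.46) and Esx1 (−0.54) did not pass without replicate 1, and those of Krt18 (−0.35), Cdx2 (−0.27) and Esx1 (−0.46) did not pass without replicate 3, which leaves 5 falls in each. Of 10 fibroblast markers, 9 were tested, 2 rose, Thy1 and Dcn, and 4 fell (2 without replicate 3), among them the collagen Col1a1 and Pdgfrb. Their summed level was 749 to 1063 normalised counts at 0 h and 1711 to 1928 at 48 h, and Thy1, a surface protein found on several cell types, made up most of the sum at 48 h. No marker of these lists was at 0 raw counts in all 3 libraries of a group. The part of such cells in the results was not tested.

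Genes of the germ line and of the 2-cell-like state also fell. Tfap2c, which acts both in naive cells and in primordial germ cells, fell from 4604, 5165 and 5483 to 381, 338 and 319 normalised counts (log2 fold change −3.88 ± 0.12), Nanos3, a germ cell survival factor, from 127, 92.1 and 84.9 to 10.1, 8.57 and 8.05, and Prdm1 (Blimp1) fell by 2.48 on the log2 scale. Of 12 germline genes tested, 8 fell, 5 of them past 2-fold, and Sycp3, a synaptonemal complex gene, rose by 0.53 on the log2 scale. The 2-cell-like genes mark rare ES cells that resemble the 2-cell embryo. All 12 of the 14 listed that could be tested fell past 2-fold, with a median log2 fold change of −2.30, between −1.91 for Zscan4a and −2.86 for Usp17la. Zscan4c had 936, 823 and 700.0 normalised counts at 0 h and 150.4, 143 and 157 at 48 h. The Zscan4 and Usp17l genes lie in families of near-identical copies whose reads can be split between members, so the value of any 1 copy is uncertain.

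Signalling genes were next described by pathway, from receptors to targets. In the LIF and STAT3 pathway 11 of 12 genes fell, 9 of them past 2-fold, with a median log2 fold change of −2.44. The receptor chains Lifr and Il6st (gp130) fell, with log2 fold changes of −1.89 and −1.43, and Stat3, their transcription factor, from 7276, 7394 and 7596 to 1046, 1189 and 1067 normalised counts (log2 fold change −2.75 ± 0.07). The feedback inhibitor Socs3, a direct STAT3 target, had 7072, 6099.9 and 6409 normalised counts at 0 h and 177, 178 and 217 at 48 h, a log2 fold change of −5.09 ± 0.13, and Bcl3, a nuclear IκB protein, had 2759, 2330.4 and 2557 normalised counts at 0 h and 25.8, 39.2 and 33.2 at 48 h. For both genes the 3 libraries at 48 h lay far below all 3 at 0 h. Pim1, Pim3 and Icam1 fell, with log2 fold changes of −2.66, −2.43 and −3.85. Gadd45g, a stress and differentiation gene, was the only member to rise (log2 fold change 1.58 ± 0.19).

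In the FGF and ERK pathway, 5 of 15 genes rose and 7 fell. Fgf4, the ligand made by ES cells themselves, fell from 8329.5 ± 921 to 5284 ± 60.5 normalised counts. Of its receptors Fgfr1 rose by 0.59 on the log2 scale, while Fgfr2, Fgfr3 and Fgfr4 fell, with log2 fold changes of −0.64, −1.11 and −0.86. The ERK phosphatases Dusp4 and Dusp6 rose, Dusp4 from 1281, 1240.0 and 1654 to 7021, 8308 and 7909.7, past 2-fold (log2 fold change 2.48 ± 0.09). The Sprouty inhibitors split, with log2 fold changes of 0.78 for Spry1, −0.56 for Spry2 and −0.59 for Spry4.

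Of 14 BMP and Id genes 8 fell and 4 rose. The ligand Bmp4 fell from 808, 880.5 and 946 to 169.5, 171 and 164 normalised counts (log2 fold change −2.38 ± 0.13). The ligand Bmp7 fell, with a log2 fold change of −0.91, and Bmp2, at 8.30, 7.92 and 9.71 and 11.2, 8.57 and 6.04 counts, did not pass the test (log2 fold change −0.01 ± 0.46). The signal transducers Smad1 and Smad5 and the receptor Bmpr1a rose, with log2 fold changes of 0.44, 0.39 and 0.27, and the receptor Bmpr2 did not pass the test (log2 fold change 0.13 ± 0.19). The rise of Bmpr1a did not pass with TMM (0.24), or without replicate 1 (0.30) or replicate 3 (0.20). Bambi, a decoy receptor that BMP induces and that inhibits its signalling, rose the most of the list, from 404, 405 and 400.3 to 648, 736 and 549 (log2 fold change 0.67 ± 0.12). All 4 Id genes, dominant-negative helix-loop-helix factors that BMP induces, fell past 2-fold. Id1 went from 3072, 2130.4 and 1862 to 74.1, 80.8 and 76.5 (log2 fold change −4.93 ± 0.24), and Id2, Id3 and Id4 fell, with log2 fold changes of −2.17, −1.29 and −1.81. The inhibitory Smads, Smad6 and Smad7, fell, with log2 fold changes of −2.56 and −1.18.

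In the Nodal pathway, 6 of 13 genes fell, 5 of them past 2-fold. Nodal itself fell from 3224, 3531 and 3427 to 1003, 924 and 841 normalised counts (log2 fold change −1.88 ± 0.13), and its co-receptor Tdgf1 (Cripto) from 37818, 45709 and 45155 to 5019, 5153 and 5060.4 (log2 fold change −3.08 ± 0.14). The Nodal targets and inhibitors Lefty1 and Lefty2 fell, with log2 fold changes of −2.33 and −3.26. Foxh1, the factor through which Smads reach these targets, rose from 2482 ± 167 to 5566 ± 272. The signal transducer Smad3 rose by 0.38 on the log2 scale, and Smad2 had a log2 fold change of −0.04 ± 0.06, which did not pass the test.

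Wnt pathway genes mostly rose before any Wnt agonist was added. Of 18, 13 rose, against 28.3% of all genes, 8 of them past 2-fold. The transcription factor Lef1 had 1123, 942 and 854 normalised counts at 0 h and 4937, 4888 and 4860.0 at 48 h (log2 fold change 2.33 ± 0.11), and Axin2, the common readout of Wnt activity, went from 563, 513 and 586 to 1547, 1613 and 1607 (log2 fold change 1.52 ± 0.08). The receptors Fzd2 and Fzd7 rose by 2.04 and 1.28 on the log2 scale, and the ligands Wnt5b and Wnt8a by 2.16 and 1.23. Lgr5, a receptor for R-spondins and a Wnt target, went from 4.15, 8.91 and 9.71 to 70.7, 44.1 and 63.4. The secreted inhibitors Notum and Sfrp1 fell, Notum from 1633, 1419 and 1068 to 108, 80.8 and 77.5, while Sfrp2 rose by 1.42 on the log2 scale. The Wnt target Sp5, given with the streak factors above, fell, so the Wnt targets named moved in both directions. Wnt activity itself was not measured. The transcript of Ctnnb1 (β-catenin) did not pass the test (log2 fold change −0.04 ± 0.05).

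All 10 genes that write or erase DNA methylation passed the test. The de novo methyltransferase Dnmt3b rose from 26317, 21569 and 19504 to 190312, 200238 and 200976 normalised counts (log2 fold change 3.13 ± 0.09), and Dnmt3a from 7359.9, 7249.8 and 7421 to 35908, 38532 and 36526 (log2 fold change 2.33 ± 0.06). Their non-catalytic partner Dnmt3l moved the other way, with 33631, 27795 and 27306 normalised counts at 0 h and 11114, 11229 and 10419.8 at 48 h (log2 fold change −1.44 ± 0.11). Transcripts of the maintenance methylation genes changed less, with Dnmt1 and its guide Uhrf1 up by 0.20 and 0.36 on the log2 scale. Of the dioxygenases that oxidise methylcytosine, Tet2 fell from 6642, 6457 and 6915 to 402, 387 and 371, Tet1 fell by 0.85 on the log2 scale and Tet3 rose by 1.09 on the log2 scale. Imprinted genes, expressed from 1 parental allele under the control of DNA methylation, went both ways, 8 up and 6 down of 16. The maternally expressed non-coding transcripts Meg3, Rian and Mirg, which share a cluster, rose together by 1.39, 1.70 and 1.79 on the log2 scale, and the neighbours H19 and Igf2 fell together, H19 from 1421, 1854 and 1928 to 117, 245 and 46.3 and Igf2 from 339, 280.3 and 440.4 to 47.2, 37.9 and 48.3.

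Adhesion genes changed in both directions. E-cadherin (Cdh1) rose from 21481, 24458 and 24720.4 to 43583, 42509 and 44565 normalised counts and N-cadherin (Cdh2) from 184, 193 and 258 to 603, 644 and 653, log2 fold changes of 0.89 ± 0.10 and 1.59 ± 0.19, while P-cadherin (Cdh3) fell by 0.54 on the log2 scale. The epithelial genes Epcam, Crb3 and Esrp1, a splicing factor of epithelia, rose by 0.86, 0.91 and 1.28 on the log2 scale. Zeb1, a repressor of Cdh1, fell from 787, 623 and 700.0 to 95.4, 90.6 and 88.6, and vimentin (Vim) fell by 1.75 on the log2 scale. Twist1 rose by 1.78 on the log2 scale, from 46.7 ± 13.9 to 159 ± 10.8. Of 15 basement membrane and integrin genes none rose and 10 fell, 5 of them past 2-fold. Nid1 (nidogen), which links laminin to collagen, fell from 11773, 14625 and 15104 to 541, 486 and 537 (log2 fold change −4.73 ± 0.12), and the laminin chains Lama1 and Lamc1 fell, with log2 fold changes of −3.84 and −1.48. Perlecan (Hspg2) and the fibronectin receptor chain Itga5 fell, with log2 fold changes of −1.83 and −2.04. Lamb1, Lama5, Itga6, Itgav and Col4a1 did not pass the test.

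Lipid synthesis genes rose nearly as a whole. Of 24 genes of cholesterol synthesis and uptake, 23 rose, against 28.3% of all genes, and 11 did so past 2-fold, with a median log2 fold change of 1.02. Stard4, which carries cholesterol between membranes, rose from 2769.7, 2937 and 2855 to 8542, 8423 and 8906 normalised counts (log2 fold change 1.60 ± 0.09). Hmgcs1, an early enzyme of the pathway, whose promoter is printed earlier, went from 8218, 8242 and 7411 to 21736, 20677 and 20677 (log2 fold change 1.40 ± 0.08). Squalene epoxidase (Sqle) rose by 1.26 on the log2 scale, and the regulator Srebf2 rose by 0.49 on the log2 scale. Fdps was counted at 158 and 430.5 on average, and its reads may be shared with near-identical copies. Ebp, a sterol isomerase, was the exception and fell from 968, 1105 and 1183 to 546, 525 and 537. Of 12 fatty acid synthesis genes 9 rose, led by the desaturases Fads2 (log2 fold change 2.53 ± 0.05) and Scd1 (log2 fold change 2.22 ± 0.09) and including Fasn, the fatty acid synthase (log2 fold change 1.35 ± 0.08). Acss2 and Thrsp fell.

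**Figure D3:**
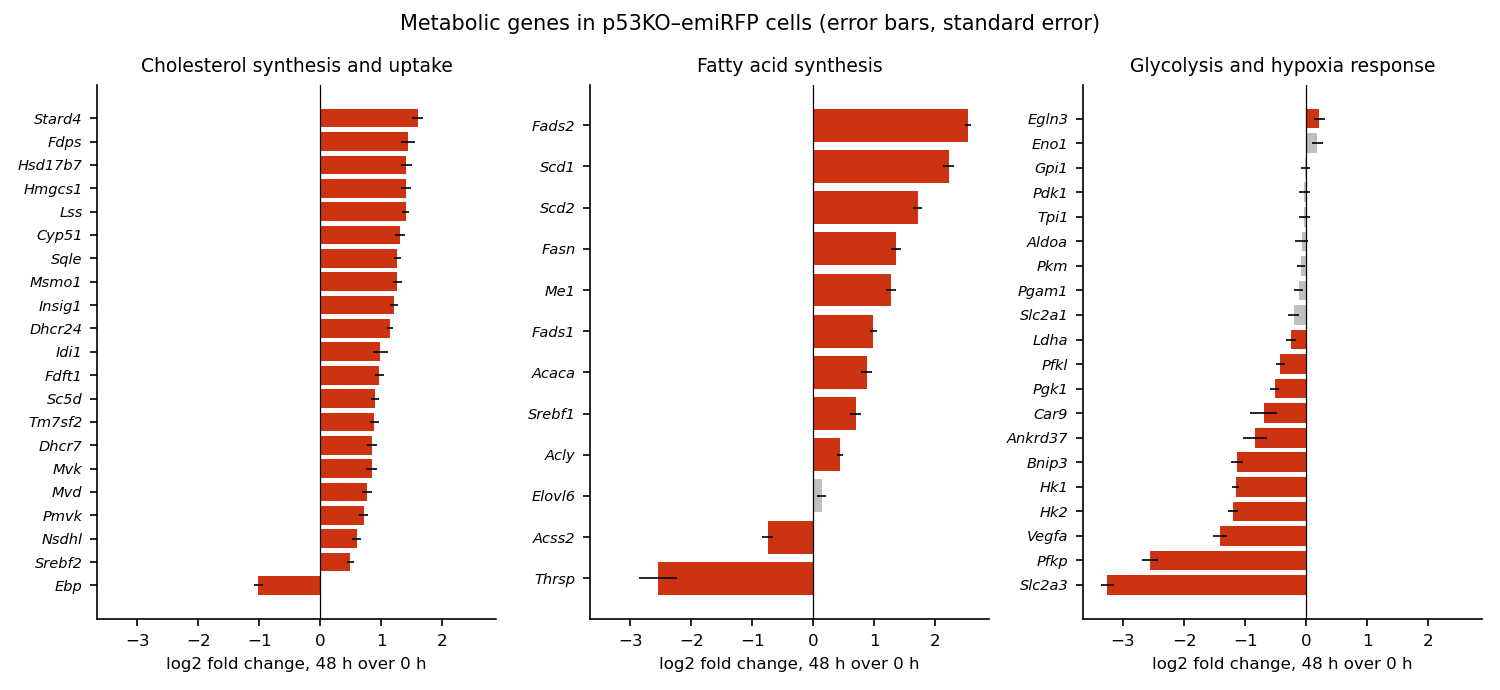
Log2 fold change, 48 h over 0 h, in p53KO–emiRFP cells (x axis) for genes (y axis) of cholesterol synthesis and uptake, fatty acid synthesis, and glycolysis and hypoxia response, with standard errors from the fit. Red bars passed the test of any change and grey bars did not; cholesterol genes point right except Ebp, and the longest bars to the left are those of Slc2a3 (−3.26) and Pfkp (−2.56).

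Glycolysis genes split. The glucose transporter Slc2a3 (GLUT3) fell from 75151, 78764 and 90507 to 8502, 8471 and 8567 normalised counts (log2 fold change −3.26 ± 0.10, adjusted p = 8.8e-34), whereas Slc2a1 (GLUT1) had 27402, 24938 and 28309 and 22467, 24997 and 22769, with overlapping groups (log2 fold change −0.20 ± 0.09, adjusted p = 0.051). The value of Slc2a1 passed as a fall in 5 of 8 alternatives, among them TMM normalization (−0.23) and the fit without replicate 2 (−0.30). The kinases at the entry of the pathway, Hk1, Hk2 and Pfkp, fell past 2-fold, with log2 fold changes of −1.15, −1.20 and −2.56. The later enzymes Gpi1, Aldoa, Tpi1, Pgam1, Eno1 and Pkm did not pass the test, and Pgk1 fell by 0.52 on the log2 scale. In all 11 of 20 genes fell, 5 past 2-fold, and Egln3 rose, with overlapping groups and a log2 fold change of 0.22, which did not pass with TMM (0.19), without the low-count filter (0.22), or without replicate 1 (0.22) or replicate 2 (0.15). The hypoxia targets Vegfa and Bnip3 fell, with log2 fold changes of −1.41 and −1.14.

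Among genes of growth and division, 10 of 16 mitotic genes did not pass the test, and those that did had log2 fold changes between −0.61 (Ccnb2) and 0.31 (Ccna2). Of 18 replication and G1/S genes 12 rose, 1 of them past 2-fold. The D-type cyclins moved in opposite directions, with Ccnd1 up from 3964, 3880.4 and 3024 to 9866, 9861 and 9145 normalised counts (log2 fold change 1.41 ± 0.08) and Ccnd3 down from 9928, 9034 and 8988 to 3279, 3805 and 3409 (log2 fold change −1.41 ± 0.08). Myc, whose product drives ribosome production, had 3605, 3467 and 3385 normalised counts at 0 h and 3103, 3590.5 and 3322 at 48 h, with overlapping groups (log2 fold change −0.06 ± 0.10, adjusted p = 0.59), and Mycn rose by 0.56 on the log2 scale. Of 20 genes of the Myc network and of ribosome biogenesis 10 rose and 4 fell, none past 2-fold. Among the CDK inhibitors Cdkn2a, Cdkn2b and Cdkn2c rose by 0.63, 0.90 and 1.07 on the log2 scale, Cdkn1b did not pass, and Cdkn1a, Cdkn1c and Cdkn2d fell, with log2 fold changes of −2.12, −1.06 and −0.70. In the integrated stress response 8 of 15 genes fell and 4 rose, none past 2-fold (1 rose without replicate 1), with Atf4 at −0.36 and its target Ddit3 (CHOP) at −0.66. The falls of that list numbered between 6 and 10 in the alternatives. Immediate early genes are known to respond to the dissociation of tissue. Of 15 tested, 5 fell, and their summed level was 17417 to 19376 normalised counts at 0 h and 12467 to 14335 at 48 h. The falls numbered 9 without the low-count filter and 9 with only the compared groups, where Fos, Fosb, Jun and Egr1 also passed. Fosl1 rose, with a log2 fold change of 0.79, and did not pass without the low-count filter (0.79), or without replicate 2 (0.75) or replicate 3 (0.54).

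Some p53 target genes rose in cells without p53. Of 24 targets listed, all tested, 7 rose, 8 fell and 9 did not pass, where the shares over all genes were 28.3% and 31.2%. In the alternatives between 5 and 8 targets rose and between 6 and 9 fell. Pmaip1 (Noxa), a BH3-only protein that promotes death by binding MCL1, had 469.9, 558 and 711 normalised counts at 0 h and 7071, 7477 and 7551 at 48 h, a log2 fold change of 3.67 ± 0.12 (adjusted p = 4.4e-33). In WT–emiRFP cells it had 604, 650.0 and 921 at 0 h and 6597, 6347 and 6811 at 48 h, so the libraries of both clones were low at 0 h and high at 48 h. Trp73, which encodes the p53 relative p73, rose from 108, 71.3 and 107 to 603, 599.8 and 606 (log2 fold change 2.67 ± 0.22), at a lower level than in WT–emiRFP at both times, where it had 526, 317 and 355 and 1941, 2092 and 2005. Aen and Zmat3 rose by 0.85 and 0.62 on the log2 scale. Mdm2 had 3658, 3536 and 3698 normalised counts at 0 h and 4151, 4141 and 4269 at 48 h (log2 fold change 0.21), a rise that did not pass with TMM (0.18), or without replicate 2 (0.20) or replicate 3 (0.20). Cdkn1a (p21), the CDK inhibitor through which p53 halts the cell cycle, fell from 424, 385 and 349 to 109, 89.4 and 69.5 normalised counts (log2 fold change −2.12 ± 0.17), whereas WT–emiRFP had 2122, 1609 and 1541 and then 2652, 2695 and 2628. Perp, Plk2 and Ak1 also fell past 2-fold, with log2 fold changes of −2.02, −1.47 and −1.43. Ccng1 had 915, 762 and 678 normalised counts at 0 h and 734, 729.6 and 733 at 48 h and did not pass the test (log2 fold change −0.10 ± 0.10), against 10239, 9607 and 11576 and 22618, 21728 and 25284 in WT–emiRFP. Bbc3 (Puma) and Bax did not pass either.

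Eda2r, a TNF receptor family member, had the lowest level relative to WT cells of the targets listed. It had 20.7, 15.8 and 21.8 normalised counts at 0 h and 38.2, 50.2 and 49.3 at 48 h, against 3475 ± 438 in the WT–mCherry cells of the same gastruloids, that is 1.32% of their level. Its rise of 1.24 ± 0.35 on the log2 scale (adjusted p = 0.0021) amounts to few counts beside that level, and the part of WT cells in it was not tested. The share was 2.03% for Plk2 and 2.39% for Phlda3. Of 15 genes of the BCL2 family, 6 rose and 4 fell, or 2 without replicate 2. Beside Pmaip1, the death antagonist Bcl2 rose past 2-fold, from 23.9, 39.6 and 35.2 to 129, 154 and 115, the BH3-only gene Bcl2l11 (Bim) rose by 0.86 on the log2 scale, and Mcl1, the partner of Noxa, fell from 25240.5, 25402 and 26364 to 12569, 12577 and 13067 (log2 fold change −1.01 ± 0.07).

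**Figure D4:**
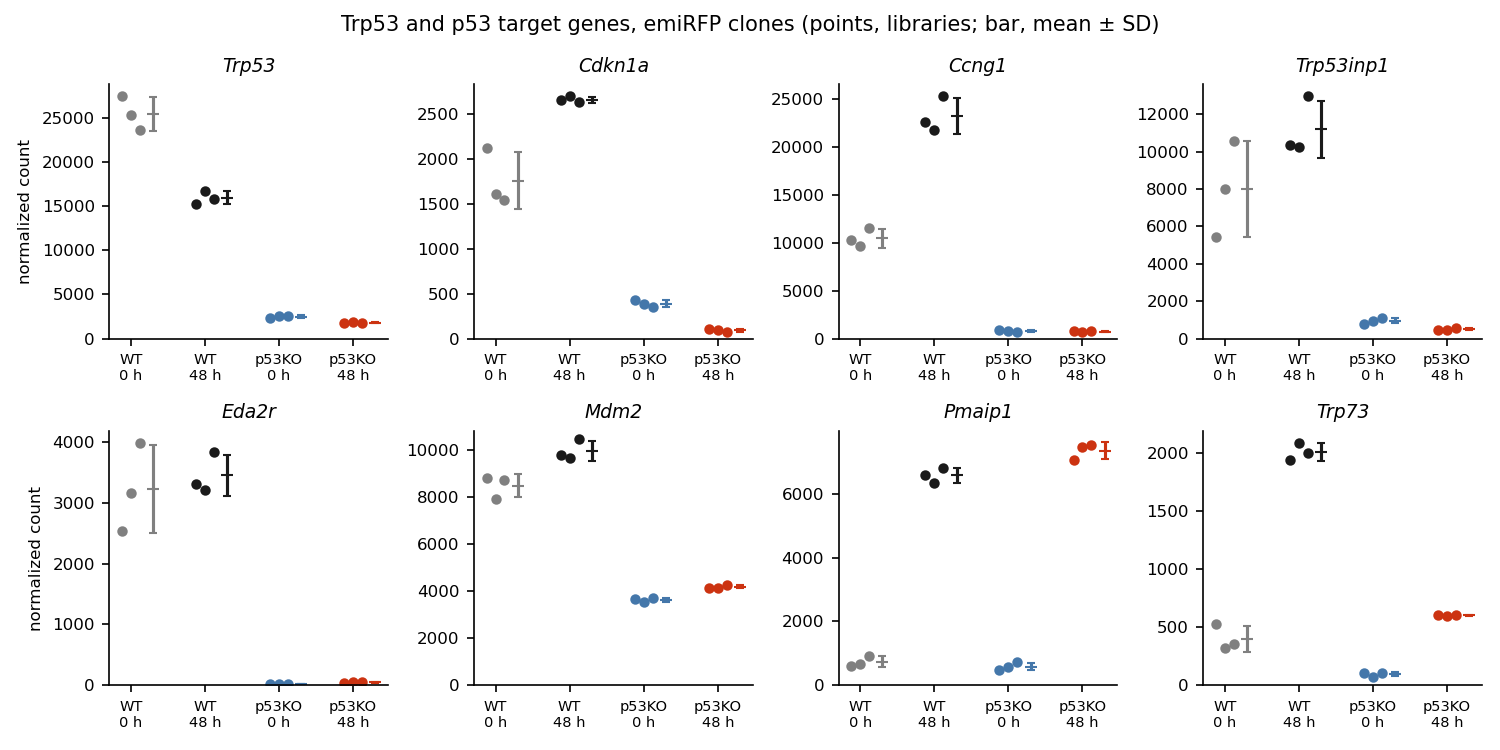
Normalised counts (y axis) of Trp53 and 7 p53 target genes in the libraries of WT–emiRFP and p53KO–emiRFP cells at 0 h and 48 h (x axis), with each library as a point and the mean ± SD of 3 beside it. Cdkn1a and Ccng1 are higher at 48 h than at 0 h in WT and not in p53KO libraries, whereas Pmaip1 and Trp73 are higher at 48 h in both clones.

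Whether a gene changed differently in the p53KO clone and in its WT parent was tested as an interaction between 12 libraries, (48 h − 0 h in p53KO) − (48 h − 0 h in WT), which is called the difference of changes and is a log2 value. It was positive and passed the test for 585 genes (2.77%) and negative for 680 (3.22%). Between 324 and 603 genes in all passed when each replicate was left out. Same-numbered libraries of the clones deviated together within a time, and with the replicate number as a block within each time 1657 differences were positive and 1511 negative, among them all of the 1265 reported here. Among the p53 targets 10 were negative and none positive against WT–emiRFP, with Cdkn1a at −2.72 ± 0.21 (adjusted p = 8.9e-15), Plk2 at −2.43 ± 0.27, Trp53inp1 at −1.41 ± 0.26 and Ccng1 at −1.25 ± 0.14. Without replicate 2 those of Sesn2 (−0.49), Perp (−1.03), Polk (−0.44), Tnfrsf10b (−0.56), Ddit4l (−0.99) and Ak1 (−0.67) did not pass. In WT–emiRFP cells 17 of the 24 targets rose and 3 fell, where 28.2% of all genes rose and 32.1% fell. For Pmaip1 the difference was 0.49 ± 0.16 (adjusted p = 0.051), which did not pass, although it did without the low-count filter (0.49), with DESeq2 (0.49) and with the block within each time (0.48). With that block 12 targets were negative and 3 positive, the latter being Pmaip1, Eda2r (1.12) and Aen (0.18). The comparison with the WT–mCherry cells of the same gastruloids was fitted without a block. Same-numbered libraries of p53KO–emiRFP and WT–mCherry deviated together at 48 h (correlations 0.33, 0.27 and 0.38). Against WT–mCherry 7 targets were negative and 4 positive, where 6.05% of all genes had a negative difference that passed and 4.5% a positive one. The positive ones were Pmaip1 (1.18 ± 0.16, adjusted p = 2.6e-07), Eda2r (1.58), Trp73 (1.21) and Zmat3 (0.58). Cdkn1a (−2.47), Plk2 (−1.67), Trp53inp1 (−0.82), Ccng1 (−0.66), Sesn2 (−0.70) and Ak1 (−0.55) were negative against both clones, and Gdf15 (−1.19) passed against WT–mCherry and not against WT–emiRFP (−0.37). Against WT–emiRFP, Sesn2 did not pass when any replicate was left out (−0.56, −0.49 and −0.42). Ak1 did not pass there without replicate 2 (−0.67) or 3 (−0.57), or with only the 12 compared libraries (−0.73). Perp, Ddit4l, Polk and Tnfrsf10b, negative against WT–emiRFP, did not pass against WT–mCherry (−0.34, −0.11, −0.03 and −0.30).

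Outside the p53 targets the most negative differences of changes were those of Inpp5d, an inositol phosphatase of the PI3K pathway, Sulf2, which removes sulfate from heparan sulfate, Fosl2, Bhlhe41, Lars2 and Snph. Inpp5d had 1731, 2179 and 1964 normalised counts at 0 h and 255, 225 and 180.2 at 48 h, against 10207, 10211 and 10121 and 6855, 6951 and 6973 in WT–emiRFP, a difference of −2.60 ± 0.16. Sulf2 had 9159.7, 11351 and 11538 normalised counts at 0 h and 1169.9, 1229 and 1152 at 48 h, against 11511, 13072 and 13281 and 6633, 6641 and 6988 in WT–emiRFP (−2.27 ± 0.11). Both genes fell in both clones and fell further in p53KO–emiRFP. Snph did not pass against the WT–mCherry cells (−0.24 ± 0.25, adjusted p = 0.66). Lars2 rests on an uneven group, since its WT–emiRFP libraries at 0 h had 11301, 57089.9 and 47550.2 normalised counts, and its difference did not pass when any replicate was left out (−1.36, −2.10 and −1.79 without replicates 1, 2 and 3). The most positive differences were those of Pla2g4e, Myh13, Eprn, Mras, Tgfbi, Ddr2, Gbx2 and Serpinb9b, all of which fell in p53KO–emiRFP cells, and by less than in WT–emiRFP. The value of Ddr2 did not pass without replicate 1 (1.41) or replicate 3 (1.25). Gbx2 had 956, 864 and 972 normalised counts at 0 h and 312, 408 and 356 at 48 h, against 1165, 1087 and 1190.4 and 160.2, 160.2 and 175 in WT–emiRFP (1.42 ± 0.16, adjusted p = 8.4e-09). The p53KO–emiRFP libraries thus lay below those of WT–emiRFP at 0 h and above them at 48 h. Serpinb9b did not pass against WT–mCherry (0.58 ± 0.22, adjusted p = 0.091).

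By list, the naive factors fell in both clones, with median log2 fold changes of −3.63 in p53KO–emiRFP and −3.93 in WT–emiRFP, and the difference of changes was positive for 6 of 16 and negative for none, where 2.77% of all genes had a positive and 3.22% a negative one that passed. These were Gbx2, Nr5a2, Zfp42, Nr0b1, Tcl1 and Prdm14, and without replicate 1 the values of Zfp42, Nr0b1 and Prdm14 did not pass (0.51, 0.84 and 1.04). Without replicate 2 the values of Nr0b1 and Prdm14 did not pass (0.82 and 1.03). Against the WT–mCherry cells, where 4.5% of all genes had a positive and 6.05% a negative difference that passed, 4 naive factors were positive, namely Gbx2, Nr5a2, Tbx3 and Fbxo15, and the value of Tcl1 turned negative (−0.26, adjusted p = 0.37). Nr5a2, an orphan nuclear receptor that activates Oct4, had 4953, 4943 and 4902 normalised counts at 0 h and 771, 761 and 744 at 48 h, against 4842, 5645 and 5839.9 and 436, 419.8 and 439.8 in WT–emiRFP. Among the formative genes 3 differences were negative, Fgf5 (−1.35 ± 0.36), Otx2 (−1.04 ± 0.24) and Dnmt3b (−0.39 ± 0.12), and none positive against WT–emiRFP. With the block within each time 8 were negative, among them Pou3f1 (−0.71) and Sall2 (−0.45), and 1 positive, that of Etv4 (0.28). For Fgf5 and Otx2 the libraries of the clones did not overlap at 0 h, where p53KO–emiRFP libraries had 88.2, 111 and 133 counts of Fgf5 against 36.4, 52.3 and 64.6 in WT–emiRFP, and 735, 782 and 906 of Otx2 against 369, 395 and 449. At 48 h the means were 3615 against 4233 for Fgf5 and 5689 against 5855 for Otx2. Against WT–mCherry the 3 did not pass (adjusted p = 0.52, 0.083 and 0.12), and without replicate 1 they did not pass either (−1.22 for Fgf5 and −0.26 for Dnmt3b). Fgf5 also did not pass without replicate 2 (−1.35). Dnmt3b also did not pass without replicate 2 (−0.48) or 3 (−0.42), or with only the 12 compared libraries (−0.40). Against WT–mCherry the formative differences that passed were those of Sox3 (1.02 ± 0.30) and Tcf15 (1.00 ± 0.28), which were positive, and of Zic2 (−0.64 ± 0.12), which was negative. In the Nodal pathway 4 of 13 differences passed as negative and 1 as positive, and against WT–mCherry, which shares the p53KO libraries, 4 and 1. Among them those of Lefty1 (−1.21 ± 0.21), Lefty2 (−0.81 ± 0.21) and Furin (−0.63 ± 0.10) were negative and that of Pcsk6 (0.39 ± 0.11) positive. That of Lefty2 did not pass without replicate 2 (−0.82) or 3 (−0.75). That of Pcsk6 did not pass when any replicate was left out (0.39, 0.39 and 0.40) or with only the 12 compared libraries (0.38). Myc fell in WT–emiRFP and did not pass in p53KO–emiRFP, with a difference of 0.72 ± 0.14 (adjusted p = 3.2e-04), and the stress gene Ddit4 rose in WT–emiRFP, with a difference of −1.56 ± 0.20. Cholesterol genes rose in both clones, with medians of 1.02 and 1.25, and 2 of 24 had a negative difference (5 with the block within each time), against 13 when WT–mCherry was the comparison.

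**Figure D5:**
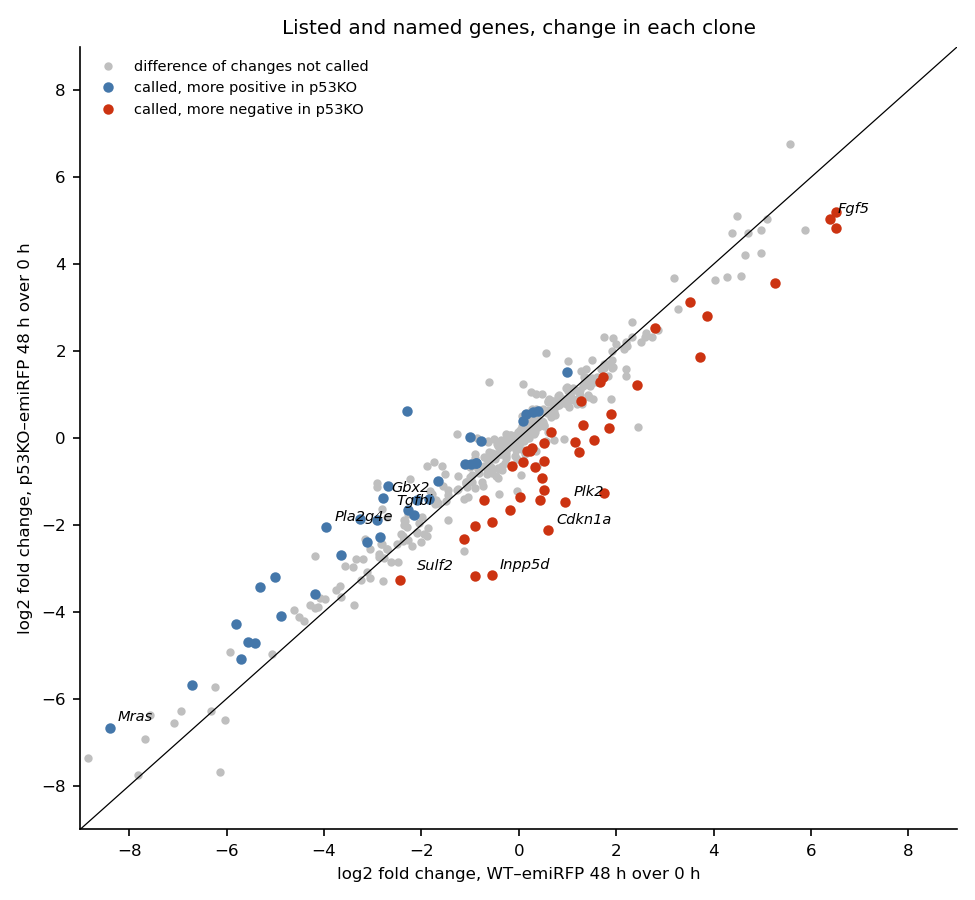
Log2 fold change, 48 h over 0 h, in WT–emiRFP cells (x axis) and in p53KO–emiRFP cells (y axis) for the 450 listed and named genes tested, with the line of equal change. Blue points (35) and red points (42) passed the test of the difference of changes, with Cdkn1a, Plk2, Inpp5d and Sulf2 below the line and Gbx2, Mras and Pla2g4e above it.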

How the data were processed

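Bulk poly-A RNA was sequenced from sorted or cultured cells, and the deposited table holds raw read counts per gene symbol for 55367 symbols in 69 libraries, of which 42280 had a count. According to the methods and the processing notes, the authors trimmed reads with Trim Galore 0.6.7, aligned them to GRCm38.p6 with STAR 2.7.11b and a Gencode annotation, and made the counts with STAR. The labels call the libraries stranded, but the strand used in counting is not given in the sources used here, so overlapping antisense genes may share reads. Extraction labels mention sorting from gastruloids for all libraries, and whether 0 h cells were sorted is not given.

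Each library was scaled by the median of its ratios to the mean library. After a filter on low counts (filterByExpr), edgeR 4.0.16 (R 4.3.3) was fitted to the counts of 23 groups by quasi-likelihood, with 46 residual degrees of freedom. Contrasts were 48 h minus 0 h in p53KO–emiRFP, the same against 2-fold (glmTreat), and the interaction with WT–emiRFP. The p values were adjusted by Benjamini-Hochberg over all 21121 genes tested, with a threshold of 0.05. Standard errors are the log2 fold change divided by the root of the F statistic. Same-numbered libraries deviated from their group means with correlations of 0.04, −0.05 and 0.09 between 0 h and 48 h in p53KO–emiRFP. In WT–emiRFP these correlations were 0.12, −0.20 and 0.41. In neither clone was each value above 0.1, so the number was not taken to pair the times. Within a time the correlations of p53KO–emiRFP with WT–emiRFP were 0.16 to 0.40, each above 0.1, so it pairs these clones, and a block within each time was added for the interaction after seeing the data (34 residual degrees of freedom). Replicates differ by the experiment. The p values measure the spread between replicates, pooled over the 69 libraries of the fit and not over the compared libraries alone. An exact test of 3 against 3 cannot go under p = 0.1, so the fit across genes was used. Alternatives were TMM normalization, no filter, a replicate block, only the groups compared, DESeq2 1.42.0, leaving out each replicate, and WT–mCherry cells (0 h, and sorted from WT + p53KO gastruloids at 48 h) in place of WT–emiRFP. Counting precision follows from the totals of the libraries given in the report.

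The members, the 30 gene lists and the tests were chosen with earlier results of these data known. Named genes were the 10 largest rises and 10 largest falls past 2-fold expressed above a mean of 1 on the log2 CPM scale, with groups that do not overlap, without predicted symbols, the 8 largest differences of changes in each direction with the same level, up to 2 rises and 2 falls of each list with members known to define it, and Trp53. Other list members named, and the STAT and sterol letters, were chosen after their values were seen. Some genes that the rule or the lists hold are counted but not reported here. Promoter sequences are from RefSeq. No column of values was left unused, and no batch label other than the replicate number was given.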

Additional observations from a re-analysis of the deposited data

Results flagged for a closer look

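The change from 0 h to 48 h differed between p53KO–emiRFP and WT–emiRFP cells, by the interaction test of edgeR with adjusted p under 0.05, for the following genes, each given with its difference of changes on the log2 scale. Positive values were those of Pla2g4e (1.91), Myh13 (1.88), Eprn (1.82), Mras (1.74), Tgfbi (1.57), Ddr2 (1.52), Gbx2 (1.42) and Serpinb9b (1.41), the largest among expressed named genes. Of the naive factors the values were Zfp42 (0.58), Prdm14 (1.04), Nr0b1 (0.79), Nr5a2 (0.96) and Tcl1 (0.87). The most negative values among expressed named genes were Cdkn1a (−2.72), Inpp5d (−2.60), Plk2 (−2.43), Sulf2 (−2.27), Fosl2 (−1.86), Bhlhe41 (−1.86), Lars2 (−1.71) and Snph (−1.69). Of the formative genes the values were Fgf5 (−1.35), Otx2 (−1.04) and Dnmt3b (−0.39). Of the Nodal pathway, where 4 values were negative and 1 positive, they included Lefty1 (−1.21), Lefty2 (−0.81), Furin (−0.63) and Pcsk6 (0.39). Of the p53 targets they were Ccng1 (−1.25), Trp53inp1 (−1.41), Sesn2 (−0.50), Perp (−1.13), Polk (−0.52), Tnfrsf10b (−0.51), Ddit4l (−1.01) and Ak1 (−0.72). With WT–mCherry cells as the comparison, which keeps the p53KO libraries, the value of Tcl1 was −0.26, and those of Serpinb9b (0.58), Zfp42 (0.33), Prdm14 (0.30), Nr0b1 (0.09), Lars2 (−1.14), Snph (−0.24), Fgf5 (−0.43), Otx2 (−0.64), Dnmt3b (−0.29), Perp (−0.34), Polk (−0.03), Tnfrsf10b (−0.30) and Ddit4l (−0.11) no longer passed. With only the 12 compared libraries the values of Ddr2 (1.51), Lars2 (−1.72), Dnmt3b (−0.40), Pcsk6 (0.38), Polk (−0.53) and Ak1 (−0.73) no longer passed. The value no longer passed for Ddr2 without replicate 1 (1.41) or 3 (1.25), Lars2 without replicate 1 (−1.36) or 2 (−2.10) or 3 (−1.79), Zfp42 without replicate 1 (0.51), Prdm14 without replicate 1 (1.04) or 2 (1.03), Nr0b1 without replicate 1 (0.84) or 2 (0.82), Fgf5 without replicate 1 (−1.22) or 2 (−1.35), Otx2 without replicate 1, Dnmt3b without replicate 1 (−0.26) or 2 (−0.48) or 3 (−0.42), Lefty2 without replicate 2 (−0.82) or 3 (−0.75), Pcsk6 without replicate 1 (0.39) or 2 (0.39) or 3 (0.40), Sesn2 without replicate 1 (−0.56) or 2 (−0.49) or 3 (−0.42), Perp without replicate 2 (−1.03), Polk without replicate 1 (−0.46) or 2 (−0.44), Tnfrsf10b without replicate 2 (−0.56) or 3 (−0.47), Ddit4l without replicate 2 (−0.99) or 3 (−0.91) and Ak1 without replicate 2 (−0.67) or 3 (−0.57). WT–emiRFP cells had other neighbours and another number of seeded cells, which cannot be told apart from the genotype, and the WT–mCherry clone carries another reporter.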

How the results depend on the processing

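The number of genes that changed over 48 h, 12558, was 12494 with TMM, 12386 without the filter, 11608 with only the compared groups, 12408 with DESeq2 and 10601 to 11296 when each replicate was left out. Past 2-fold the number was 3112, between 2218 (DESeq2) and 3192 (replicate block) in the fits with all replicates and 2602 to 2717 when each replicate was left out. The number of genes whose change differed from WT–emiRFP depended most on the fit. It was 1265 in the fit reported, 486 with only the 12 libraries, 324 to 603 when each replicate was left out, and 2228 with WT–mCherry cells as the comparison. The replicate block gave 2053 such genes and 13184 changed genes. The block within each time, which was added after seeing the data, gave 3168 such genes. The difference of changes of Pmaip1 passed with both blocks (0.49 and 0.48). DESeq2 gave 1630 such genes, TMM 1204 and no filter 1188. The cause of these shifts was not tested. Among the listed and named genes no called log2 fold change reversed in these alternatives. Of 3585 refitted values 88 lost their call and 72 gained one. Of 400 refitted differences of changes 52 lost their call, 5 gained one and that of Tcl1 reversed against WT–mCherry (−0.26). TMM moved the median of all genes by −0.03. Genes with few counts, such as the streak and fibroblast markers, limit what the depth can show. The median of the fibroblast markers changed sign in 4 alternatives and that of the p53 targets in 1, both from values close to 0.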
